A study of Mus musculus with 6 samples.

Results

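The transcripts described here have no gene name of their own on the array and were more abundant in the mutant cortex. A probe set, the group of array probes that gives 1 intensity, was a candidate when the platform annotation listed no gene for it or listed only a predicted gene (Gm and a number) or a clone-derived gene (a name ending in Rik). It was kept when its mean intensity over the 3 mutant arrays was 100 or more and at least 2 times the mean of the 3 wild-type arrays, with every mutant array above every wild-type array. Of 11354 unnamed candidates among 45037 probe sets, 88 were kept. No gene was listed for 62 of them, and 26 carried a Gm or Rik symbol, of 21 genes. These probe sets were chosen by the measured intensities of both groups, so their difference between genotypes is given as a description, without a test.

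The arrays measured total RNA of mouse dorsal telencephalon, the part of the forebrain that forms the cerebral cortex, dissected at stage E14.5. The 3 wild-type (WT) and 3 conditional knockout (cKO) samples, every one labelled male, had the C57BL\6 background. The knockout was made with Emx2Cre, which acts in progenitors of the dorsal forebrain, and the gene removed was taken to be Setdb1, which encodes ESET, from knowledge of the study. The labels do not say whether the WT embryos carried Cre or floxed alleles, nor which exons were removed, and cells of the dissected tissue outside the Emx2 lineage keep the gene.

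ESET is a histone methyltransferase that is brought to chromatin by TRIM28 and KRAB zinc finger proteins and keeps many retroviral elements silent in embryonic cells. When such elements are transcribed, their long terminal repeats can act as promoters, and the RNA can run on into neighbouring sequence as a chimeric transcript. Repeat-derived and chimeric transcripts often lack a gene name. On these arrays, a name ending in _x_at marks a set with probes that may also bind similar sequences of other genes, _s_at marks probes shared by several transcripts, and _a_at marks probes shared by transcripts of 1 gene. The files hold no probe sequences and no repeat annotation was used, so whether any of the 88 is read from a repeat or a chimera was not tested.

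All 21 genes with a symbol were found in the RefSeq gene table of assembly GRCm38.p6, where 11 are long non-coding RNAs, 8 are protein coding and 2, Gm13238 and 1700128F08Rik, are transcribed pseudogenes. Promoter sequences were at hand for 19 of them. Among these, Gm9222, 5730507C01Rik and 2410018L13Rik lie on chromosome 12 and have related promoters, which are shown because this likeness in sequence was not used to select them. 5730507C01Rik falls outside the rule for naming members and was chosen after its values were seen. Each RefSeq window holds 250 bases before and 50 after the start site, printed 5′ to 3′ on the gene's strand, and capitals mark bases in a run of at least 25 that occurs identically, on either strand, in the promoter of another gene. The windows are chr12:17881623-17881922 (+) for Gm9222, chr12:18514260-18514559 (+) for 5730507C01Rik and chr12:23010194-23010493 (-) for 2410018L13Rik. The promoter of 2310043L19Rik, the gene-named member with the largest ratio, is given beside them at chr1:177642894-177643193 (-) and holds no such run.
Gm9222: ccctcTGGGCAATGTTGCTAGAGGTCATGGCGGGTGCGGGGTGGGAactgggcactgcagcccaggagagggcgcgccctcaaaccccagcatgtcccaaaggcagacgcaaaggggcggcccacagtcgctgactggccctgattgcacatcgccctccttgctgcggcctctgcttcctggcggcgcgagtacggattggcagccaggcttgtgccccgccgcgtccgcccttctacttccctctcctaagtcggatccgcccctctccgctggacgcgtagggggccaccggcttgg
5730507C01Rik: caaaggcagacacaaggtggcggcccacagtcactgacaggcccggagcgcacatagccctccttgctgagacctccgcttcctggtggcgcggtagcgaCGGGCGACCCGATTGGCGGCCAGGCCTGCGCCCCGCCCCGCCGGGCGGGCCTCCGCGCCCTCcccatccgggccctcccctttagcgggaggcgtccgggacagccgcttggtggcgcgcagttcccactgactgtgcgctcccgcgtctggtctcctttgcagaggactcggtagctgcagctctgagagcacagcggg
2410018L13Rik: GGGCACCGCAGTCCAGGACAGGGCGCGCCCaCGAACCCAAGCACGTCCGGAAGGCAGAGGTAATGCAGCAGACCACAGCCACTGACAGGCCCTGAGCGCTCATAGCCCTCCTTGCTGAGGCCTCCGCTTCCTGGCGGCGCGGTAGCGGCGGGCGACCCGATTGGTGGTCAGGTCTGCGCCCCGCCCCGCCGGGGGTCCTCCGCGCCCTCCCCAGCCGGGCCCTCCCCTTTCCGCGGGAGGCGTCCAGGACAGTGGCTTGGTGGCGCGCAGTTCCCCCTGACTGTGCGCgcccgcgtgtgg
2310043L19Rik: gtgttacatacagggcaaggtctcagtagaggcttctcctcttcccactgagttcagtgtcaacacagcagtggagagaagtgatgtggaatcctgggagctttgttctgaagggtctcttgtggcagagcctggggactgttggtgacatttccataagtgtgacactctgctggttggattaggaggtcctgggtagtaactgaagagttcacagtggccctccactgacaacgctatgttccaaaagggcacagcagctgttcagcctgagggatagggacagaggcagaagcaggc

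In a local alignment, the promoters of 5730507C01Rik and 2410018L13Rik matched at 223 of 251 columns (88.8%). That of Gm9222 matched 2410018L13Rik at 190 of 263 columns (72.2%) and 5730507C01Rik at 155 of 214 (72.4%). Alignments of the 3 with the promoters of 2310043L19Rik, 4930447C04Rik or Gm364 covered between 10 and 41 columns. Shared runs took up 287 bases of the window of 2410018L13Rik, 62 of 5730507C01Rik and 41 of Gm9222. The promoters with which they shared a run belonged to 10 genes for 2410018L13Rik, 6 for Gm9222 and 5 for 5730507C01Rik, every one on chromosome 12. Gm38699, Gm3973 and Gm9257 were common to the 3 lists. Gm9222 and 5730507C01Rik are 12 genes apart in RefSeq order, and 2410018L13Rik is 78 genes from 5730507C01Rik.

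A run of at least 25 bases shared with another promoter was found in 7 of the 19 member genes (36.8%), against 3901 of 27025 genes (14.4%) and 20.1% of all Gm or Rik genes with a promoter. With runs of at least 20 bases the shares were 47.4% and 23.0%, and with 40 bases 26.3% and 10%. The other 4 genes shared runs with promoters outside the chromosome 12 group. Gm13306 shared its promoters with Ccl27a, Ccl27b and 3 predicted genes on chromosome 4, where Ccl27a encodes a skin chemokine. Gm20559 shared a run with its neighbour Samd9l, C430042M11Rik with 3 genes known by number alone, and 1700086P04Rik with Ankrd17. Short motifs were searched on both strands and counted once per gene, since 24 windows, some overlapping, belong to the 19 genes. TATAAA was in a window of 3 of the 19 genes (15.8%) and of 15.7% of all genes with a promoter, CCAAT in 7 (36.8%) and 41.1%, CACGTG in 3 (15.8%) and 8.09%, and TCCCGC in 6 (31.6%) and 22%. A match is a run of letters and no evidence of binding.

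The targeted gene was lower on the cKO arrays, as its brightest probe set shows. Setdb1 (1451833_a_at) read 1161.6, 1185.1 and 1032.9 on the WT arrays and 704.0, 695.5 and 499.9 on the cKO arrays, a log2 fold change of -0.83 with a standard error (SE) of 0.18 and a limma adjusted p of 0.237 over all probe sets, so it did not pass 0.05. The groups did not overlap there, nor at 1458215_at (56.5, 70.3 and 74.8 against 10.6, 23.8 and 34.2). They overlapped at 1416670_at (35.5, 40.7 and 78.3 against 33.96, 17.9 and 48.7). In such mixed tissue, fewer cells with a transcript and less of it per cell cannot be told apart.

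The arrays had median intensities between 91.1 and 119.1, and between 16.1% and 20.3% of their probe sets lay below 16. The 3 arrays per group limit the precision, and a limma p-value weighs the group difference against the spread between arrays of a group. Both arrays numbered 3 stood apart. WT 3 gave the signals of a female sample and cKO 3 those of both sexes, although both are labelled male. Xist, a transcript of females, read 17293.8 on WT 3, 8810.6 on cKO 3 and 34.1 to 59.0 on the remaining 4, while Y-linked Kdm5d read 10.2 on WT 3, 662.5 on cKO 3 and between 909.2 and 1028.3 on the others. The summed level of 7 of 8 erythroid markers was 69267.7 on WT 3 and 73834.0 on cKO 3, against 11154.5 to 17092.1 on the others. The 6 meningeal and mesenchymal markers summed to 2028.5 on cKO 3 and to between 264.7 and 613.3 elsewhere. Dorsal telencephalon markers, 7 of 8 measured, summed to between 40469.2 and 48441.5 on all arrays, those of microglia (5) to between 825.0 and 1210.7, and those of ventral telencephalon (7) to between 3342.3 and 4548.2. Such sums do not show single genes. Dorsal Eomes was lower in cKO without overlap (4689.5, 4706.8 and 5062.4 in WT against 2783.3, 3191.6 and 3404.4). Dorsal Neurog2 and ventral Gad1, Lhx6 and Nkx2-1 were higher in cKO without overlap. limma called 0 markers of either list.

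Intensities of the 88 were, by median, 93.8, 88.3 and 102.6 on the 3 WT arrays and 287.1, 317.8 and 326.9 on the 3 cKO arrays. The ratio of group means ran from 2.01 to 358.5 with a median of 3.14, and 32 of 88 reached 4, 14 reached 8, 11 reached 10 and 6 reached 50. The median log2 fold change, on log2(intensity + 16), was 1.51, against 0.02 over all probe sets. In 42 of the 88 the lowest cKO array was at least 2 times the highest WT array. This also held for 84 of the 176 named probe sets that met the intensity criteria of the rule. Among all 45037 probe sets, at any level, it held for 250. The same intensity criteria were met by 264 of all probe sets (0.586%), and all cKO arrays lay above all WT arrays in 7.47% of all probe sets. A limma fit across all probe sets called 30 of the 88 higher at an adjusted p of 0.05, where it called 0.224% of all probe sets higher and 0.0511% lower. The rule used this contrast, and nothing is read from these counts.

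Of the unnamed probe sets with a cKO mean of 100 or more, 2.56% were kept (88 of 3438), against 0.898% (176 of 19598) of the named ones. The share was 5.25% (26 of 495) for those with a Gm or Rik symbol and 2.11% (62 of 2943) for those with no gene. With the criteria turned around, so that WT had to be higher, 0.666% of unnamed (22 of 3303) and 0.658% of named probe sets (128 of 19439) met them. The unnamed ones made up 33.3% of all probe sets that met the criteria, and 25.2% of all probe sets. The named sets that met them had a median ratio of 2.83 and reached 100-fold.

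**Figure D1:**
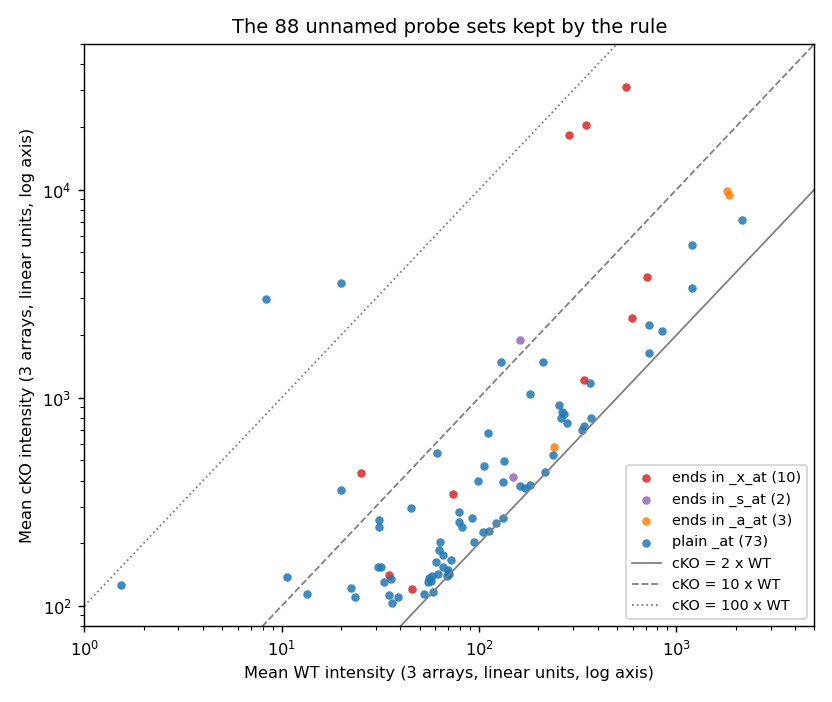
Mean cKO intensity against mean WT intensity (linear units on log axes, 3 arrays each) for the 88 probe sets, coloured by the ending of the name, with lines at ratios of 2, 10 and 100. The 3 brightest in the cKO arrays, all ending in _x_at, lie between the lines for 10 and 100, and 46 of the 88 have a WT mean under 100.

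The level in WT tissue varied widely. WT means ran from 1.53 to 2140.5 with a median of 93.0, and 4 lay under 16, 21 under 50 and 46 under 100. In the other direction, 11 reached 500 in WT and 5 reached 1000, so some of these transcripts were already bright in normal cortex. The median ratio was 47.8 for the 4 with a WT mean under 16, 4.80 for the 17 from 16 to 50, 2.42 for the 25 from 50 to 100, 2.95 for the 31 from 100 to 500, 3.58 for the 6 from 500 to 1000 and 4.52 for the 5 above. A ratio against a WT mean near the array's lowest values is set by a small denominator, and no detection calls were used here. The minimum cKO mean of 100 also forces larger ratios at dim WT levels, so the rule fixed part of this pattern.

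The 2 largest ratios belonged to probe sets that were dim in WT and bright in cKO. Probe set 1452452_at, with no gene listed, read 8.79, 7.94 and 8.34 on the WT arrays and 3641.3, 3606.7 and 1736.4 on the cKO arrays, 358.5-fold. Every cKO array was far above every WT array, and cKO 3 was the lowest of its group. 2310043L19Rik (1440008_at), on chromosome 1, read 27.0, 7.18 and 26.04 in WT and 3318.8, 4404.1 and 2911.9 in cKO, 176.7-fold. The ratios without the arrays numbered 3 were 433.3 and 226.2. The next, 1427380_at, reached only 183.2, 103.0 and 92.7 in cKO from 0.573, 3.40 and 0.607 in WT. Its ratio of 82.7 rests on WT values near the lowest on the array, and its log2 fold change on the scale with 16 added is 2.97.

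The 3 brightest transcripts all carried the _x_at ending and had cKO means over 10000. Gm9222 (1438050_x_at) read 281.6, 217.5 and 545.8 in WT and 19776.1, 16626.4 and 25157.7 in cKO, 58.9-fold. Probe set 1451626_x_at read 323.5, 190.3 and 347.6 in WT and 17059.8, 22672.5 and 15364.9 in cKO, 63.96-fold. Probe set 1436362_x_at read 445.5, 414.0 and 799.4 in WT and 36457.3, 27511.5 and 28822.7 in cKO, 55.9-fold. WT 3 was the highest WT array in each, and the cKO arrays differed in which was highest. Whether these sets read 1 family of transcripts or several was not tested.

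The chromosome 12 group held 4 of the 88. Beside Gm9222, 2410018L13Rik was measured by 2 probe sets, both members. 1430845_at read 9.12, 3.26 and 19.6 in WT and 137.6, 120.7 and 153.5 in cKO, 12.9-fold, and 1431317_at read 52.5, 40.4 and 97.3 against 137.9, 160.7 and 308.7, 3.19-fold. 5730507C01Rik (1453210_at) read 104.2, 128.0 and 166.1 in WT and 341.5, 452.0 and 382.9 in cKO, 2.95-fold. In none of these did the groups overlap, as the rule required, and the 2 probe sets of 2410018L13Rik gave unlike ratios for 1 gene. A further probe set, 1431250_at, is listed for Gm9222, Gm5784 and 9030624G23Rik together and was therefore no candidate. It read 181.6, 138.8 and 182.3 in WT and 209.8, 203.3 and 399.9 in cKO, without overlap. Its ratio was 1.62, with cKO 3 the highest array, against 58.9 for the _x_at set of Gm9222.

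4930447C04Rik, listed in RefSeq with the synonym Six6os1, was measured by 3 probe sets, all members. Its product is known as a part of the synaptonemal complex, which pairs chromosomes in meiosis. 1431393_at read 27.9, 1.99 and 30.2 in WT and 278.2, 487.0 and 312.8 in cKO, 17.9-fold. 1431896_at read 32.2, 29.9 and 31.4 against 242.3, 207.3 and 323.5, 8.27-fold, and 1446260_at read 9.96, 11.7 and 18.9 against 84.2, 128.0 and 128.6, 8.41-fold. All 3 probe sets of this gene were higher in cKO with no overlap, as the rule required of each, and the WT level of each was under 50.

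Other gene-named members with large ratios came from several chromosomes. Gm13238 (1442183_at), a transcribed pseudogene on chromosome 4, read 169.0, 230.8 and 231.1 in WT and 1349.5, 1640.1 and 1482.1 in cKO, 7.09-fold. Gm364 (1440692_at), on the X chromosome, read 45.9, 19.2 and 28.6 against 276.1, 207.3 and 237.5, 7.70-fold. 4833418N02Rik (1430686_at), on chromosome 17, read 139.1, 246.6 and 159.0 against 776.5, 1253.5 and 1079.7, 5.71-fold. The narrowest of these gaps, between the lowest cKO and the highest WT array, was that of 4833418N02Rik.

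C430042M11Rik (1457878_at) read 2.06, 28.1 and 37.4 in WT and 89.0, 137.1 and 139.3 in cKO, 5.41-fold. Gm20559 was measured by 1436172_at (31.6, 34.7 and 26.4 against 146.1, 185.0 and 128.2, 4.96-fold) and by 1455581_x_at (70.0, 63.8 and 86.6 against 239.7, 478.6 and 318.9, 4.71-fold). Gm6958, already bright in WT, was measured by 1426936_at (1501.6, 1107.5 and 994.7 against 5743.7, 6243.1 and 4302.7, 4.52-fold) and by 1435628_x_at (723.5, 593.7 and 463.0 against 2994.1, 2507.5 and 1755.2, 4.08-fold). For both Gm20559 and Gm6958 the set with and the set without the _x_at ending had like ratios. The remaining Gm and Rik members, apart from those of chromosome 12, had ratios between 2.08 (1700086P04Rik) and 3.76 (Gm17250). 5 further probe sets of these genes were not members. Those of 1700010I14Rik (1419624_a_at and 1436863_at) had ratios of 2.28 and 2.27 at cKO means of 81.0 and 87.1, under the minimum of 100. The other 3 overlapped between groups, with ratios of 1.55 for C630043F03Rik (1455542_at), 1.86 for Gm17250 (1458750_at) and 1.77 for 1700048O20Rik (1432778_at).

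**Figure D2:**
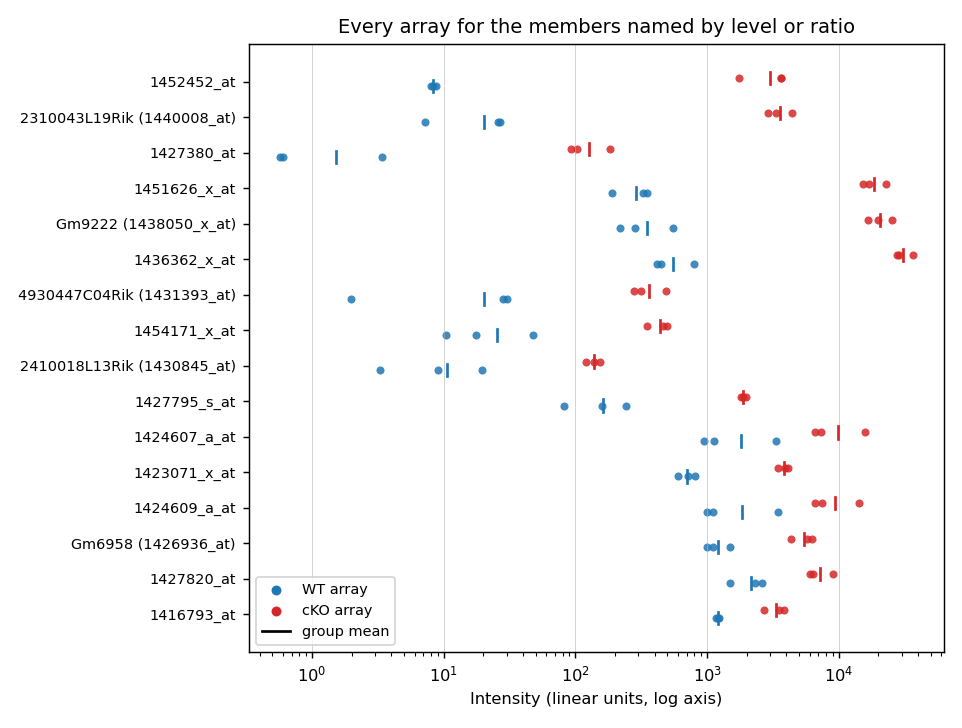
Intensity on every WT array (blue) and cKO array (red) for the 16 members with the largest ratio or the highest cKO mean, on a log axis in linear units, with bars at the group means. In each row the red points lie to the right of the blue ones, as the rule required, and the gap is widest for 1452452_at and 2310043L19Rik.

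Among members with no gene listed, 1454171_x_at read 47.9, 17.6 and 10.5 in WT and 466.3, 491.5 and 351.7 in cKO, 17.2-fold. Probe set 1427795_s_at read 81.8, 243.7 and 158.1 against 1878.3, 1808.3 and 1970.6, 11.7-fold. Its cKO arrays differed little while its WT arrays spread widely. Probe set 1423071_x_at read 717.9, 601.8 and 805.4 against 3896.0, 3438.9 and 4102.4, 5.38-fold.

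Some of the brightest unnamed transcripts had smaller ratios. Probe set 1427820_at read 2301.6, 2622.1 and 1497.8 in WT and 6322.2, 9052.2 and 6049.3 in cKO, 3.34-fold. Probe set 1416793_at read 1216.8, 1230.0 and 1158.5 against 3842.3, 3530.1 and 2713.2, 2.80-fold. In both, the lowest cKO array was over 2 times the highest WT array. The 51 members with no gene listed that are not named by level or ratio had ratios from 2.01 to 11.5, with a median of 2.46, and cKO means from 109.9 to 2238.1.

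The arrays numbered 3 moved with the values of a pair of the brightest members. Probe set 1424607_a_at read 939.6, 1119.6 and 3359.4 in WT and 6621.3, 7303.2 and 15718.1 in cKO, 5.47-fold. Probe set 1424609_a_at read 1001.5, 1100.2 and 3442.4 against 6553.7, 7416.2 and 14319.3, 5.10-fold. In both sets the array numbered 3 was the highest of its group, and without these arrays the ratios were 6.76 and 6.65. 1428670_at was the only other member more than 1 higher (log2) on both, with 585.9, 367.6 and 1224.6 against 2008.4, 1342.9 and 3363.2, 3.08-fold and 3.52-fold without them. Over the 88, the array numbered 3 differed from the other 2 of its group by a median of 0.16 (log2) in WT and -0.01 in cKO, while the median of the 7 erythroid genes was 4.29 and 4.70. Without both arrays, 85 of the 88 had a ratio of 2 or more, the smallest was 1.70 and the median 3.19. The rule had used the remaining arrays too, so ratios near or above 2 were largely fixed by it. The rule applied to the other 4 arrays kept 117, of which 84 were among the 88 and 13 ended in _x_at. Lack of overlap is a looser demand with fewer arrays, so 117 and 88 are not counts under an equal criterion. On those 4 arrays limma called 3 of the 88 higher. Leaving out WT 3 alone kept 136 and included 86 of them.

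**Figure D3:**
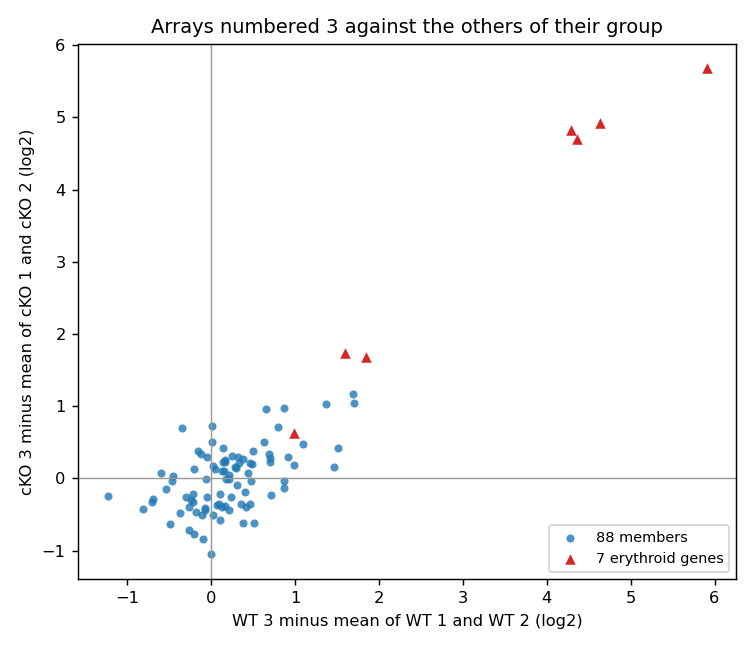
Log2 difference between the array numbered 3 and the mean of the other 2 arrays of its group, in WT (horizontal axis) and cKO (vertical axis), for the 88 members (blue) and 7 erythroid genes (red). Most members lie within 1 of 0 on both axes, and 3 members exceed 1 on both, while 6 of the 7 erythroid genes do.

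The endings of the names differed between the 88 and the unnamed probe sets they came from. Names ended in _x_at in 10 of the 88 (11.4%), in _s_at in 2 (2.27%), in _a_at in 3 (3.41%) and in plain _at in 73 (83.0%). Of the 3438 unnamed probe sets with a cKO mean of 100 or more, 145 ended in _x_at (4.22%), and of all 11354 unnamed ones 2.86%. Among named probe sets, _x_at made up 21 of the 176 that met the same criteria (11.9%) and 6.84% of those with a cKO mean of 100 or more. Put the other way, 10 of 145 unnamed _x_at sets were kept (6.9%) against 73 of 3067 plain ones (2.38%), and of the named, 1.57% of _x_at and 0.926% of plain ones met the criteria. The ending was carried by 6 of the 21 members with a cKO mean of 1000 or more (28.6%) and by the 3 above 10000. Its share among other probe sets at those levels was not computed, so these counts have no comparison at a like level. The median ratio was 5.04 for _x_at and 2.94 for plain _at. No test was made of these shares, and probe sets of 1 gene or 1 sequence family are not independent.

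**Figure D4:**
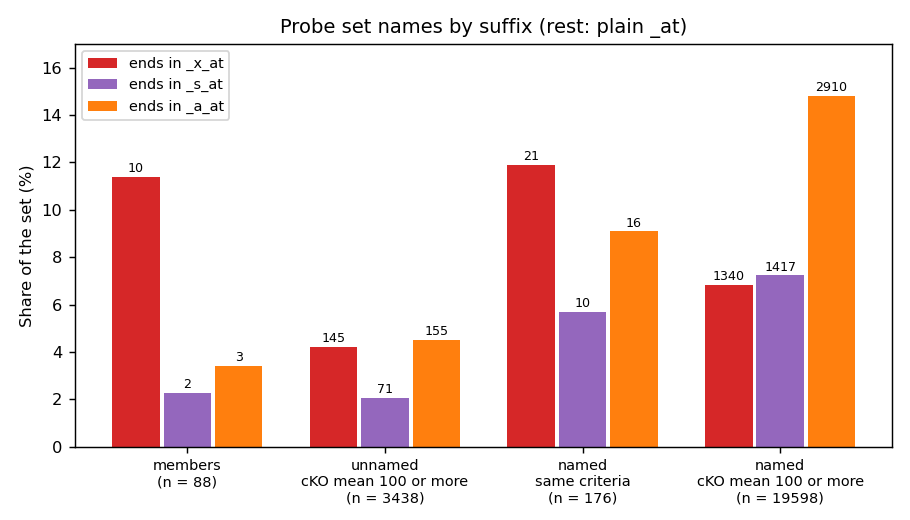
Share of probe sets whose names end in _x_at, _s_at or _a_at among the 88 members, the unnamed probe sets with a cKO mean of 100 or more, the named probe sets that met the same criteria, and the named ones with a cKO mean of 100 or more, with counts above the bars. The _x_at share is 11.4% in the members and 4.22% in the unnamed sets they were drawn from.

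The nearest named gene with a probe set on each side of the 21, in RefSeq order, was not used to choose them and could be tested. It was not always close: of the 42 pairs, 29 were 5 or fewer genes apart, where 1 means that no other gene lies between, and 10 were 10 or more apart, up to 52. They gave 40 genes, of which limma, adjusted over all probe sets, called 1 higher (0 without both arrays numbered 3) and 0 lower, and 6 had no overlap between groups with cKO higher. At an unadjusted p under 0.05, limma had 6 of the 40 higher and 3 lower, and 5 and 3 without both arrays numbered 3. Over the 16417 named genes placed in that order, 0.268% were called higher and 0.0853% lower, at the unadjusted p 4.53% were higher and 3.82% lower (4.2% and 3.88% without both arrays numbered 3), and 7.78% had all cKO arrays above all WT arrays. The median log2 fold change was 0.08 for the 40 and 0.003 for all placed genes. The other neighbours did not pass the threshold, which does not show that they are unchanged.

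The gene called was Znf41-ps, a zinc finger pseudogene next to Gm13238. It read 155.0, 131.7 and 114.8 in WT and 624.0, 627.1 and 466.9 in cKO, with a log2 fold change of 1.97 (SE 0.19) and a limma adjusted p of 0.0223. The groups did not overlap, but in the fits that left out 1 array the adjusted p lay between 0.0505 and 0.139, and without both arrays numbered 3 it was 0.215. Zfp991, a zinc finger gene 38 genes from Gm13238 on the other side, read 507.4, 357.6 and 394.6 in WT and 1627.1, 1677.9 and 1595.6 in cKO (log2 fold change 1.93, SE 0.17, limma adjusted p 0.0156, 0.0519 to 0.116 with 1 array left out and 0.274 without both arrays numbered 3). Whether the probe sets of Znf41-ps and Zfp991 bind related zinc finger sequences was not tested.

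Beside 4833418N02Rik, Ttc7, which encodes a tetratricopeptide repeat protein and overlaps it, had a mean of 175 in WT and 744 in cKO (log2 fold change 2.01, SE 0.29, limma adjusted p 0.0817). Mcfd2, a cargo receptor subunit on its other side, read 0.90 higher on the log2 scale (adjusted p 0.0932). Trpc6, a cation channel gene 2 genes from 1700128F08Rik, had means of 5.82 and 41.9 (log2 fold change 1.37, adjusted p 0.178). These 3 genes did not pass the threshold and were chosen after their values were seen. Around 2310043L19Rik, Zbtb18, 5 genes away, had a log2 fold change of -0.10 and Adss, 3 genes away, had -0.55 (SE 0.14, limma adjusted p 0.305). Adss read 3667.1, 4023.6 and 3611.0 in WT and 2723.4, 2515.1 and 2461.2 in cKO, without overlap. Around 4930447C04Rik, Ppm1a, 3 genes away, had -0.03 and Six6, the next gene, 0.005. The nearest named genes around Gm9222 were Hpcal1, 4 genes away, at 0.45 and Asap2, 52 genes away, at -0.14. Both are also the nearest to 5730507C01Rik, at 16 and 40 genes. Eomes, a gene of cortical intermediate progenitors and 8 genes from Gm17399, had -0.63 with an adjusted p of 0.264.

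**Figure D5:**
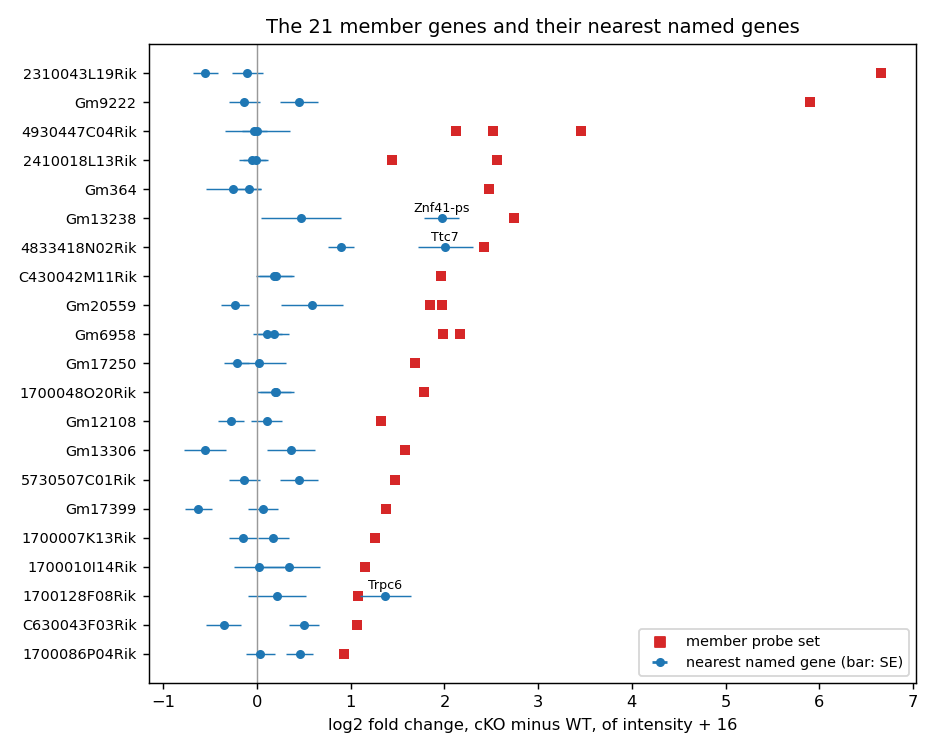
Log2 fold change (cKO minus WT, intensity + 16) of the members' probe sets (red squares) and of the nearest named gene on each side (blue points, bars are SE) for each of the 21 genes. These genes are 1 to 52 genes away. The blue points run from -0.63 for Eomes and reach 1.97 for Znf41-ps, 2.01 for Ttc7 and 1.37 for Trpc6.

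Members were also compared with each other over the 3 cKO arrays. The log2 ratio of a pair varied by less than 0.2 in 183 of 3828 pairs (4.78%), against 749 of 15400 pairs (4.86%) of the named probe sets that met the same criteria. The closest pair among the members named by level or ratio was 2310043L19Rik and 1451626_x_at, whose ratio varied by 0.04. Next came 1454171_x_at with Gm6958 (1426936_at) at 0.05 and 2410018L13Rik (1430845_at) with 1423071_x_at at 0.09. The ratio of 1424607_a_at to 1424609_a_at varied by 0.16, and further pairs of other members were closer than that. 1451626_x_at and 1438050_x_at (Gm9222) varied by 1.16, and 1451626_x_at and 1436362_x_at by 0.82. The median spread between arrays of a group was 24.3% of the mean in WT and 19.6% in cKO. All pairs were compared over the same 3 arrays.

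The silencing pathway was listed as 34 symbols, Setdb1 among them, of which 29 were measured. limma called 0 higher and 0 lower, where 3 were higher and 1, Setdb1 itself, was lower at an unadjusted p under 0.05. Over 18194 genes, 0.291% were called higher and 0.0824% lower, and at that unadjusted p 4.74% were higher and 3.8% lower. The median log2 fold change was 0.07 for the list and 0.007 over all genes. Beside Setdb1, the largest differences were those of Tasor, a subunit of the HUSH silencing complex, at 0.91 (adjusted p 0.176), Atf7ip, the partner that stabilises ESET, at 0.76 (0.326), Zfp819, dim in both groups, at 0.69 (0.699), and Zfp809, a KRAB zinc finger protein that targets retroviral elements, at 0.58 (0.387). Trim28 had -0.10, the DNA methyltransferase gene Dnmt1 -0.17, Uhrf1 -0.13 and Hells -0.18. None of these passed the threshold.

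The threshold fell in a continuous range of values. Just inside the fold of 2 lay 1456657_at (2.01), 1458581_at (2.02), 1458927_at (2.02) and 1432712_at (2.03). Just outside lay 1441797_at (1.99), 1446882_at (1.98), 1440030_at (1.98) and Gm14204 (1441203_at, 1.97). The dimmest members, 1428705_at (1700007K13Rik) and 1447317_at, had cKO means of 103.1 and 109.9. Just below the intensity minimum lay 1441150_x_at, with a cKO mean of 98.1 and a ratio of 8.48, and 1444518_at, with 93.9.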

How the data were processed

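Labelled cRNA from 250 ng of total RNA was hybridised to each Affymetrix array, 3 WT and 3 cKO by their labels. The sample titles do not say whether each array holds RNA of 1 embryo. The deposited intensities are linear, 1 value per probe set and array, and were made by the authors with the Affymetrix Expression Console, per the submitters' processing notes. Neither the version nor the algorithm that summarised probes is given in the sources used here. All 6 deposited sample columns were used.

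The platform annotation lists 1 gene for 34945 probe sets, several for 932 and none for 9160. A probe set it lists no gene for is unnamed here, not known to lack one. The Gm pattern also matched 3 probe sets of Gm2a, none of which was kept. Fits used log2(intensity + 16) for all 45037 probe sets in limma 3.58.1 (lmFit and eBayes, R 4.3.3), with genotype as the only term, Benjamini-Hochberg adjustment and a threshold of 0.05. The other steps ran in Python 3.11.15. The fit was tested on simulated data with independent noise on each array and changes in brighter probe sets only. That test does not cover dim probe sets or the shared deviation of the arrays numbered 3. Where a gene had several probe sets, the one brightest on average (log2) stood for it.

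Promoters within 5000 bases of each other, and runs with fewer than 10 distinct triplets, were not counted as sharing. Members named are the 10 with the highest cKO mean, the 10 with the largest ratio, Gm or Rik members among the 25 largest ratios, other probe sets of those genes, 4 probe sets on each side of the fold of 2, neighbours that passed the threshold, and Setdb1. Others named, among them those at the intensity minimum, were chosen after their values were seen. The members and all lists were chosen with earlier results of these data known. Alternatives were quantile and median scaling, pseudocounts of 1 and 64, other thresholds, trend and robust eBayes, a filter on dim probe sets, leaving out _x_at and _s_at sets, leaving out arrays, and a replicate block.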

Additional observations from a re-analysis of the deposited data

How the results depend on the processing

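The number of unnamed probe sets kept was 176 with a fold of 1.5, 32 with a fold of 4, 135 with a cKO mean of at least 50 and 58 with at least 200, and it lay between 85 and 136 when each array was left out in turn, with the 136 reached without WT 3. Lack of overlap between groups is a looser demand when an array is left out. Quantile normalization kept 82 of the 88 and median scaling 79. The median log2 fold change was 1.15 with a pseudocount of 64, 0.93 with a fold of 1.5 and 2.48 with a fold of 4. The number of the 88 that limma called higher was 12 with a pseudocount of 1, 46 with trend and robust eBayes, 3 without both arrays numbered 3 and 8 to 14 with 1 array left out. It was 29 with the arrays numbered 3 as a block, an alternative chosen after seeing the data. Of the 30 called, 6 were called in each of the 6 fits with 1 array left out and 13 in none. The cause was not tested, and fits with fewer arrays have fewer degrees of freedom. Because the rule used the same contrast, nothing is read from the counts of members called.

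The number of nearest named genes called higher was 2 with arrays scaled to one median, 0 with a pseudocount of 1, 3 with a pseudocount of 64, 3 with dim probe sets left out, 3 with trend and robust eBayes, 0 without both arrays numbered 3, 0 in each fit with 1 array left out, and 2 among the 2 nearest genes on each side. With the replicate number as a replicate block, 2 of the 88 and 0 neighbours were called. At an unadjusted p under 0.05, limma had 7 of the 40 higher and 3 lower with the block (5.58% and 4.6% of all placed genes), 6 and 2 with a pseudocount of 1 (4.15% and 3.47%), and 4 to 8 higher and 2 to 3 lower with 1 array left out (3.66% to 4.4% and 2.81% to 4.28%). The numbers were not taken to pair the arrays, since the deviations of WT 1 and cKO 1 correlated at 0.079, those of the arrays numbered 2 at 0.194 and of those numbered 3 at 0.41. WT 1 correlated best with cKO 2 rather than with its own number. Of the log2 fold changes of named members, 187 values under the alternatives moved by less than the spread between arrays, 12 moved by more, all with another pseudocount, and 0 reversed. Intensities near background limit the ratios of the dimmest members.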
